A study of Mus musculus with 9 samples.

Results

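The aminoacyl tRNA synthetase genes were taken from mouse yolk sac arrays by gene symbol: every probe set that named a single gene whose symbol is that of a cytosolic or mitochondrial synthetase, or of the scaffold proteins Aimp1 and Aimp2. The 37 probe sets found covered 36 genes of the 19933 on the array, namely 18 cytosolic enzymes, 16 mitochondrial enzymes and 2 scaffold proteins. Where a gene had more than 1 probe set, the one with the highest mean signal was used. Members of the family outside these 36 genes are not analysed here, apart from Tarsl2, which is counted further on among other genes of tRNA charging.

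Total RNA came from yolk sacs at embryonic day 9.5, on a mixed SV 129 and C57BL/6 background, with 3 arrays each of Rnh1 knockouts (KO, Rnh1-/-), heterozygotes (HET, Rnh1+/-) and wild types (WT, Rnh1+/+). The labels state that the embryos were untreated and the yolk sacs dissected clear of maternal tissue. The Rnh1 protein is an inhibitor that binds ribonucleases of the pancreatic type inside the cell, among them angiogenin, which can cut tRNA. The labels do not say how the gene was deleted, whether a sample was 1 yolk sac or a pool, or whether the 3 arrays of a genotype stand for 3 animals. The p-values therefore reflect only how much these samples vary, which may be technical variation. Values are RMA log2 signals, and each difference between genotypes is on that scale. Except for the ratios of gene pairs, its standard error (SE, n = 3 arrays per genotype) is from 1 limma model of all 9 arrays.

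A synthetase joins 1 amino acid to its tRNA, the step that supplies the ribosome with charged tRNA. Cells hold a cytosolic set and a mitochondrial set, both encoded in the nucleus and mostly by separate genes. Gars (glycine) and Kars (lysine) are exceptions that encode the enzyme of both compartments, and Eprs encodes a single protein for glutamate and proline. In animals several cytosolic enzymes, among them those of Eprs, Iars, Lars, Mars1, Qars, Rars and Kars, sit in a multisynthetase complex held together by scaffold proteins that include Aimp1 and Aimp2. The yolk sac at this stage makes blood and secretes serum proteins. Many cytosolic synthetase genes are targets of Atf4, the transcription factor of the amino acid and integrated stress response.

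Rnh1 itself read 6.28, 6.78 and 6.87 on the KO arrays, 9.75, 9.75 and 9.77 on HET and 10.39, 10.42 and 10.32 on WT, lowest in KO and intermediate in HET. Genes no brighter than the 40th percentile of the probe sets on more than 6 of the 9 arrays were not tested. This left 13207 genes. All 36 family members were among them, and their lowest signal on any array was 7.08, against filter levels of 6.35 to 6.57. Of all genes tested, 1092 were higher (8.27%) and 2009 lower (15.2%) in KO than in WT at a limma adjusted p under 0.05. The share of lower calls among them was 64.8%. It was 81.4% when each array was centred on its median, 58.4% with cyclic loess and 56.9% with quantile normalization. Counts are also given without WT 2 and KO 1, which were singled out in earlier work on these arrays. Their deviations from the genotype means correlated at 0.41 across genes, which other array pairs also reached (up to 0.42). Eif2s3y, a gene of the Y chromosome, read 7.62, 7.27 and 4.41 in KO, 8.68, 7.87 and 8.48 in HET and 8.81, 8.15 and 4.34 in WT, so that KO 3 and WT 3 were the low arrays.

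KO against WT asked what differed when both Rnh1 copies were missing. Of the 36 genes, 14 fell in KO and 0 rose, while 22 were not past the test. Among all genes tested, 23.5% passed in either direction, with 15.2% lower and 8.27% higher in KO. The falls were 9 of 18 cytosolic enzymes (50%) and 5 of 16 mitochondrial enzymes (31.2%), and neither scaffold protein passed. They were modest, leaving between 68.7% of the WT level for Nars2 and 87.1% for Mars1. At an unadjusted p under 0.05 there were 16 family genes, all lower in KO, beside 38% of all genes tested in either direction. The median difference was -0.20 for cytosolic and -0.06 for mitochondrial enzymes, against -0.005 for all genes tested. Signals ran from 9.12 to 11.86 in the cytosolic class and from 7.08 to 10.55 in the mitochondrial class. The median over all genes was 0.03 without the filter on dim genes and -0.032 with a filter at the array median. The part of signal level in the class medians was not tested. Whether the median of the classes differed was not tested. In whole tissue, fewer cells of a type and less RNA per cell cannot be told apart, and markers of several yolk sac cell types also differed between genotypes, as given further on.

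**Figure D1:**
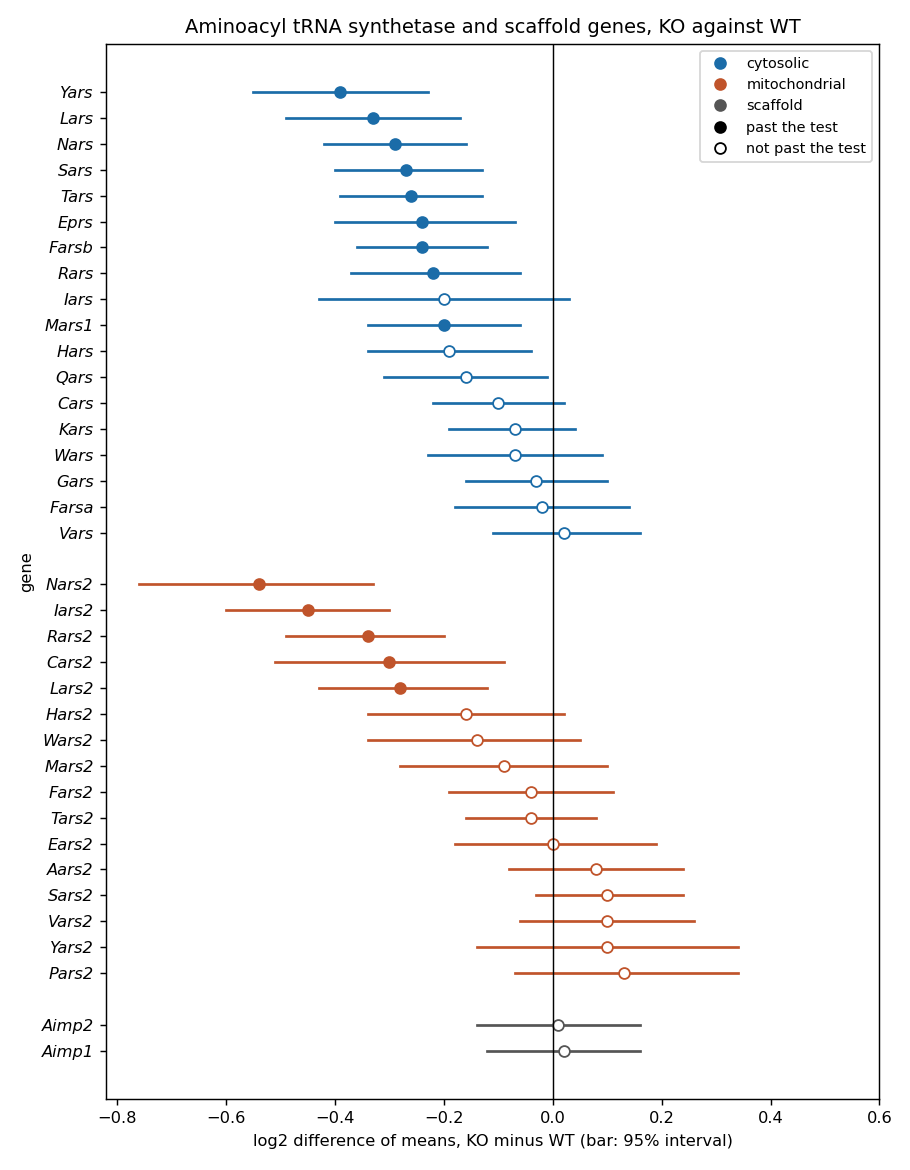
Log2 difference of means, KO minus WT (x axis, with 95% intervals from limma), for each of the 36 genes (y axis), in blue for cytosolic enzymes, orange for mitochondrial enzymes and grey for scaffold proteins; filled circles passed the test. The filled circles lie between -0.54 and -0.20 and all are left of 0, with 9 among the cytosolic and 5 among the mitochondrial genes.

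Without WT 2 and KO 1 the number that fell was 8 (5 cytosolic and 3 mitochondrial), when 12.6% of all genes tested fell. Without WT 1 alone it was 7 (4 and 3, against 8.78% of all genes), and without WT 2 alone 9 (6 and 3, against 8.66%). With the Eif2s3y signal as a covariate 12 fell (8 and 4, against 13.4%). Cars2 and Mars1 did not pass there (limma adjusted p = 0.06709 and 0.0701), with differences of -0.295 and -0.195 that had hardly moved. The 6 genes Yars, Lars, Nars, Nars2, Iars2 and Rars2 passed under each of the 12 other settings and without each single array.

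Promoter stretches of members are shown because many cytosolic synthetase genes are known Atf4 targets through a C/EBP-ATF composite element. RefSeq windows (GRCm38.p6, 250 bases before to 50 after a start) were found for 27 of the 36 genes, 11 cytosolic and 14 mitochondrial enzymes and both scaffold genes. The element was searched as TGATGNAA on both strands, and 3.97% of all 32851 windows hold it. It was found in 4 of 11 cytosolic genes, namely Yars, Tars, Iars and Gars, and in 0 of 14 mitochondrial genes. The stretches below run 5′ to 3′ along the gene from 70 bases before the start to 20 bases after it, with the element in capitals, first in Yars and Tars, which fell, then in Iars and Gars, which did not pass, and last in Iars2 and Nars2, the mitochondrial genes with the largest falls, which hold none.
Yars, chr4:129189833-129189922, plus strand: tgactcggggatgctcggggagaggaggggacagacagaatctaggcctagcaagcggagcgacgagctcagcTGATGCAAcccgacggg
Tars, chr15:11399639-11399728, minus strand: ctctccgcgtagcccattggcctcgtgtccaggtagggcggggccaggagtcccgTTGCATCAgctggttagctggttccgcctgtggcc
Iars, chr13:49682060-49682149, plus strand: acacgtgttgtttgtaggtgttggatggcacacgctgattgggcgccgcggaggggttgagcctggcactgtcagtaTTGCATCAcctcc
Gars, chr6:55037931-55038020, plus strand: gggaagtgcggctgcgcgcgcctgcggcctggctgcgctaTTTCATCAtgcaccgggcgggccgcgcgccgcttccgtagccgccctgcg
Iars2, chr1:185329382-185329471, minus strand: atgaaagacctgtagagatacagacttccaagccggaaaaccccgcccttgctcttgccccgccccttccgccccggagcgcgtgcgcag
Nars2, chr7:96951457-96951546, plus strand: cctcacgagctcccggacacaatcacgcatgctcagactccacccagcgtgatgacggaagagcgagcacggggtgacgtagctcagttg

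The 4 genes with the element had KO to WT differences of -0.39 (Yars), -0.26 (Tars), -0.20 (Iars) and -0.03 (Gars). By its other probe set Iars was at -0.22 and passed. An E-box, CACGTG, was found in Farsb, Iars, Tars and Ears2 (7.15% of all windows), an NRF-1 motif, GCATGCGC, in Rars2, Vars2 and Wars2 (2.71%), and the ETS site CCGGAAGT in Farsa, Mars1, Rars2 and Aimp1 (3.89%). All motifs were searched on both strands. Of the cytosolic genes named for these other motifs, Farsb, Mars1 and Farsa do not hold the composite element. Farsb (-0.24) and Mars1 (-0.20) fell, and Farsa (-0.02) did not pass. A match in a window is a description of its letters.

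Among enzymes outside the complex, Yars, which charges tyrosine, had the largest fall of the cytosolic genes. It stood at 10.55, 10.73 and 10.68 on the KO arrays, at 11.08, 11.18 and 11 on HET and at 11.03, 11.11 and 11 on WT. All KO arrays thus lay below all others, by more than the width of the WT group. The difference from WT was -0.39 ± 0.07 (limma adjusted p = 0.00578), which leaves 76.1% of the WT level (95% interval 68.1% to 85.1%). Nars, for asparagine, read 11.42, 11.36 and 11.50 in KO, 11.72, 11.65 and 11.70 in HET and 11.75, 11.67 and 11.72 in WT. It fell by 0.29 (SE 0.06, limma adjusted p = 0.00857), and again no KO array reached the other genotypes. Sars, the serine enzyme, read 10.64, 10.72 and 10.64 in KO, 10.98, 11.02 and 10.92 in HET and 10.91, 11.02 and 10.88 in WT. That is a difference of -0.27 ± 0.06 (limma adjusted p = 0.0135), not past the test without WT 2 and KO 1 together (adjusted p = 0.0544).

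For Tars, the cytosolic threonine enzyme, HET lay between the other genotypes. Its signal was 9.96, 9.85 and 9.80 in KO, 10.03, 9.95 and 10.00 in HET and 10.15, 10.11 and 10.14 in WT. KO and HET each lay wholly below WT, while KO 1 lay within the HET range. The KO to WT difference was -0.26 ± 0.06 (limma adjusted p = 0.0136), and it was not past the test without WT 1 (adjusted p = 0.0573). Phenylalanine is charged by an enzyme of 2 kinds of subunit, alpha from Farsa and beta from Farsb. Farsb read 10.90, 10.88 and 10.90 in KO, 11.10, 11.04 and 11.11 in HET and 11.13, 11.19 and 11.08 in WT. It fell by 0.24 (SE 0.05, limma adjusted p = 0.0127), and without WT 1 the difference was -0.24 and not past the test (adjusted p = 0.0506). Farsa had a difference of -0.02 with a 95% interval from -0.18 to 0.14, and whether the subunits differed from each other was not tested.

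Of the 7 enzymes of the multisynthetase complex analysed here, 4 fell and 3 did not pass, with a median difference of -0.20, beside 15.2% lower and a median of -0.005 over all genes tested. Lars, the leucine enzyme, read 9.98, 9.82 and 10.09 in KO, 10.24, 10.29 and 10.26 in HET and 10.28, 10.30 and 10.29 in WT. The 6 HET and WT arrays lay within a narrow band, and all KO arrays lay below it. The difference was -0.33 ± 0.07 (limma adjusted p = 0.0118).

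Smaller falls were seen for Eprs, Rars and Mars1, and these calls were close to the threshold. Eprs, for glutamate and proline, read 10.94, 10.88 and 11.13 in KO, 11.16, 11.15 and 11.23 in HET and 11.26, 11.15 and 11.25 in WT. KO 3 lay just under the lowest WT array, and the difference was -0.24 ± 0.07 (limma adjusted p = 0.0458). Rars, the arginine enzyme, read 11.31, 11.45 and 11.57 in KO, 11.67, 11.67 and 11.70 in HET and 11.68, 11.66 and 11.65 in WT (-0.22 ± 0.07, limma adjusted p = 0.0487). Its KO arrays were spread over a wider range than the HET and WT arrays together. Mars1, for methionine, read 10.33, 10.28 and 10.42 in KO, 10.47, 10.47 and 10.56 in HET and 10.58, 10.57 and 10.47 in WT (-0.20 ± 0.06, limma adjusted p = 0.0448). With quantile normalization the differences were -0.17, -0.16 and -0.12 for Eprs, Rars and Mars1, and none of them passed (adjusted p = 0.157, 0.15 and 0.205). Of the 9 fits with 1 array left out, Eprs and Rars did not pass in 8 and Mars1 in 7. Those fits included the ones without WT 1, without WT 2 and without each HET array, with limma adjusted p up to 0.149.

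The other complex enzymes, Qars for glutamine, Iars for isoleucine and Kars for lysine, had differences of -0.16, -0.20 and -0.07 and did not pass. Iars was read by 2 probe sets that gave different calls, and which of them reads Iars without cross-hybridisation is not known here, so whether Iars fell is not settled. The one with the higher mean read 11.84, 11.44 and 11.56 in KO, 11.68, 11.86 and 11.64 in HET and 11.79, 11.83 and 11.83 in WT, so that KO 1 lay above every WT array. It did not pass (-0.20 ± 0.10, limma adjusted p = 0.181). The other probe set read 11.25, 11.36 and 11.46 in KO, 11.56, 11.65 and 11.57 in HET and 11.62, 11.55 and 11.55 in WT, with all KO arrays below the rest, and it passed (-0.22 ± 0.07, limma adjusted p = 0.0419). By that probe set 10 cytosolic enzymes fell in place of 9.

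Of the remaining cytosolic genes, Hars, the histidine enzyme, had a difference of -0.19 (limma adjusted p = 0.0651) and Cars, for cysteine, one of -0.10, and in both all KO arrays lay below all WT arrays. Wars (tryptophan), Gars (glycine) and Vars (valine) had differences of -0.07, -0.03 and 0.02. Their 95% intervals ran from -0.23 to 0.09, from -0.16 to 0.10 and from -0.11 to 0.16, so changes of the size seen in Yars lie outside them. The interval of Wars still holds falls of the size seen in Mars1 (-0.20) and Rars (-0.22). Over the cytosolic class, 13 of 18 genes had all KO arrays below all WT arrays and 0 had them above, beside 24.7% and 15.8% of all genes tested. Eprs aside, which holds both kinds, enzymes of class I and class II, which differ in the fold of their catalytic domain, had 4 of 9 and 4 of 8 members lower, with medians of -0.20 and -0.22.

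**Figure D2:**
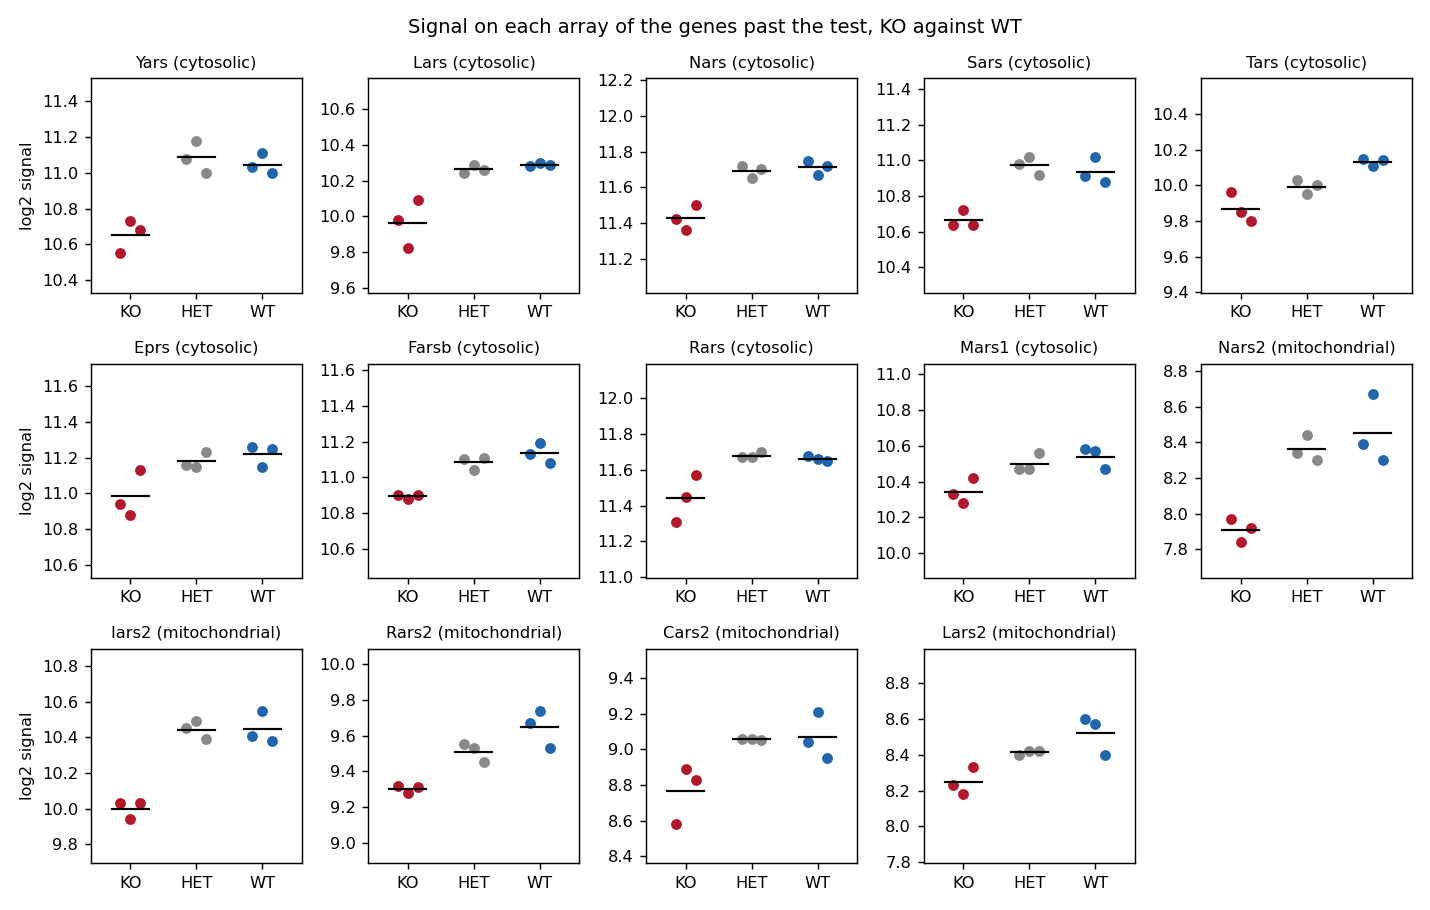
Log2 signal (y axis) on each array for the 14 genes that passed the test for KO against WT, with KO, HET and WT arrays from left to right; points are arrays and black lines are genotype means, and each panel spans the same height. In every panel the 3 KO points lie below the 3 WT points, and the ranges of HET and WT points overlap in every panel but that of Tars.

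The mitochondrial class held the largest falls of the family. Nars2, the mitochondrial asparagine enzyme, read 7.97, 7.84 and 7.92 in KO, 8.34, 8.44 and 8.30 in HET and 8.39, 8.67 and 8.30 in WT. WT 2 was the highest array, and every KO array lay below every HET and WT array. The difference was -0.54 ± 0.10 (limma adjusted p = 0.00534), leaving 68.7% of the WT level (95% interval 59.2% to 79.8%). Iars2, for isoleucine, read 10.03, 9.94 and 10.03 in KO, 10.45, 10.49 and 10.39 in HET and 10.41, 10.55 and 10.38 in WT. HET and WT arrays were mixed in one range and KO stood apart, at -0.45 ± 0.07 (limma adjusted p = 0.00258), which is 73.2% of the WT level and the smallest p in the family, ranked 313 among all genes.

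Rars2, the mitochondrial arginine enzyme, read 9.32, 9.28 and 9.31 in KO, 9.55, 9.53 and 9.45 in HET and 9.67, 9.74 and 9.53 in WT (-0.34 ± 0.07, limma adjusted p = 0.0071). Lars2, for leucine, read 8.23, 8.18 and 8.33 in KO, 8.40, 8.42 and 8.42 in HET and 8.60, 8.57 and 8.40 in WT (-0.28 ± 0.07, limma adjusted p = 0.0196). In both genes the KO arrays were lowest and the HET mean lay between those of KO and WT. Lars2 did not pass without KO 2, WT 1 or WT 2 (adjusted p up to 0.0831). Cars2, for cysteine, read 8.58, 8.89 and 8.83 in KO, 9.06, 9.06 and 9.05 in HET and 9.04, 9.21 and 8.95 in WT (-0.30 ± 0.09, limma adjusted p = 0.0437). KO 1 was its lowest array. Without WT 2 and KO 1 the difference was -0.14 (limma adjusted p = 0.148), and it passed in only 2 of the 9 fits with 1 array left out.

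The other 11 mitochondrial enzymes did not pass, and their differences ran from -0.16 for Hars2 to 0.13 for Pars2, the proline enzyme. Wars2, Mars2, Fars2, Tars2 and Ears2 (tryptophan, methionine, phenylalanine, threonine and glutamate) lay between -0.14 and 0.00. Aars2, Sars2, Vars2 and Yars2 (alanine, serine, valine and tyrosine) lay between 0.08 and 0.10. Sars2 was the sole member with every KO array above every WT array, at 9.72, 9.61 and 9.60 in KO, 9.51, 9.63 and 9.50 in HET and 9.52, 9.57 and 9.52 in WT. It passed with quantile normalization (0.17, limma adjusted p = 0.0411), as Pars2 did with array weights (0.18, adjusted p = 0.0455), and no other member rose under any setting. Over the mitochondrial class 5 of 16 genes had all KO arrays below all WT arrays, beside 24.7% of all genes tested.

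The scaffold genes did not pass. Aimp1 read 9.44, 9.40 and 9.35 in KO, 9.42, 9.34 and 9.48 in HET and 9.34, 9.46 and 9.34 in WT, with a difference of 0.02 (95% interval -0.12 to 0.16). Aimp2 read 10.50, 10.57 and 10.52 in KO, 10.53, 10.39 and 10.53 in HET and 10.58, 10.55 and 10.43 in WT, with a difference of 0.01 (-0.14 to 0.16). The genotypes overlapped in both genes, and both differences turned negative when arrays were centred on their medians (-0.05 and -0.06), that of Aimp2 also with array weights (-0.03).

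By array, the median gene of the cytosolic class stood at -0.19, -0.24 and -0.11 from the WT mean in KO 1, KO 2 and KO 3, at -0.04, -0.07 and -0.02 on the HET arrays, and within 0.01 of it on the WT arrays. Mitochondrial medians were -0.07, -0.03 and -0.09 in KO, no lower than -0.04 in HET and -0.01, 0.09 and -0.06 in WT, so that the genotypes overlapped.

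A cytosolic and a mitochondrial enzyme for the same amino acid could be set side by side for 12 amino acids. Both fell for leucine, asparagine and arginine. For methionine, serine, threonine and tyrosine the cytosolic gene passed and its mitochondrial partner did not, and for cysteine and isoleucine the mitochondrial gene passed and the cytosolic one did not. Neither passed for histidine, valine and tryptophan. Isoleucine was placed by the Iars probe set with the higher mean, and by the other one Iars passed as well. The places of methionine, arginine and cysteine rest on calls close to the threshold. With 1 array left out, Mars1, Rars and Cars2 did not pass in 7, 8 and 7 of 9 fits. Hars and Hars2 are next to each other in the RefSeq gene table, and their differences were -0.19 and -0.16.

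The log2 ratio of cytosolic over mitochondrial signal was compared between KO and WT for each of the 12 pairs. Its level has no meaning between probe sets, but its change shows unequal shifts. The SE of a change was taken from the KO and WT arrays alone, outside the limma model. For tyrosine (Yars over Yars2) the ratio lay at -0.86, -0.27 and -0.35 from the WT mean in the KO arrays and within 0.01 of it in WT, a change of -0.49 ± 0.18 (SE). KO 1 was the most extreme, with the lowest Yars signal and with Yars2 at 9.75, against 9.34 and 9.36 in KO 2 and KO 3 and 9.34 to 9.44 in WT. For serine (Sars over Sars2) the change was -0.37 ± 0.06 and for threonine -0.22 ± 0.06. The ratio moved the opposite way for asparagine and isoleucine (0.25 ± 0.14 and 0.25 ± 0.11) and for cysteine (0.20 ± 0.12). In these 6 pairs the KO and WT arrays did not overlap, and in the other 6 they did. Among single genes tested, 24.7% had all KO arrays below all WT arrays and 15.8% had them above. The share for ratios of other gene pairs was not computed. A two-sided exact permutation test cannot go below p = 0.1 with 3 against 3 arrays. The 6 pairs without overlap reached that value (Benjamini-Hochberg adjusted over the 12 pairs, 0.2), so none passed.

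**Figure D3:**
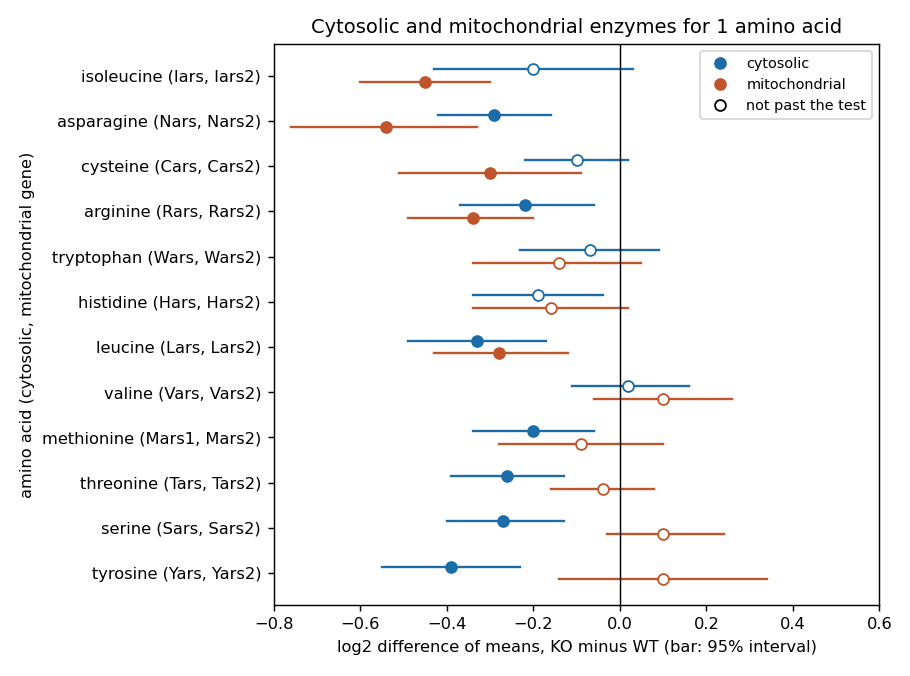
Log2 difference of means, KO minus WT (x axis, bars are 95% intervals from limma), of the cytosolic (blue) and mitochondrial (orange) enzyme for each of 12 amino acids (y axis), ordered by the change of their ratio; filled circles passed the test. Isoleucine and asparagine, at the top, have the mitochondrial gene farther left, and serine and tyrosine, at the bottom, have the cytosolic gene at -0.27 and -0.39 and the mitochondrial one at 0.10.

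HET against WT asked what the loss of a single Rnh1 copy did. By limma 0 of 36 members and 0 of 13207 genes (0%) passed, and these 0 calls include Rnh1 itself, which was at 64.9% of the WT level with no overlap of arrays (-0.62 ± 0.13, limma adjusted p = 0.939). At an unadjusted p under 0.05 there were 1 member, Tars, and 327 genes (2.48%), and with array weights 0 members and 6 genes passed. Tars had a difference of -0.14 ± 0.06 (limma adjusted p = 0.939). HET arrays lay wholly below WT arrays for 3 cytosolic genes, Tars, Hars and Kars, and for 0 mitochondrial genes, beside 5.98% of all genes tested. They lay wholly above WT for 0 members, beside 4.25%. The class medians were -0.04 for cytosolic and -0.01 for mitochondrial enzymes.

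KO against HET uses the same KO arrays and therefore is not independent of the comparison with WT. Here 6 of 18 cytosolic enzymes (33.3%) and 2 of 16 mitochondrial enzymes (12.5%) fell and 0 rose. Among all genes tested 13.6% fell and 8.17% rose, so the mitochondrial share of falls was near that of all genes. The cytosolic genes were Yars (-0.43 ± 0.07, limma adjusted p = 0.00406), Sars (-0.30), Lars (-0.30), Nars (-0.27), Rars (-0.24) and Farsb (-0.19), with the mitochondrial genes Iars2 (-0.45, adjusted p = 0.0025) and Nars2 (-0.45, adjusted p = 0.0117). At an unadjusted p under 0.05 there were 16 members, all lower in KO but Pars2 (0.22, limma adjusted p = 0.115), beside 35.1% of all genes in either direction. All KO arrays lay below all HET arrays for 16 members, beside 21.4% of all genes. Class medians were -0.14 and -0.04, against -0.01 for all genes tested. Rars2 (-0.21, limma adjusted p = 0.0522) and Cars2 (-0.29, adjusted p = 0.053) did not quite pass, and both passed without WT 2 and KO 1, where 9 members and 16.8% of all genes fell. With the Eif2s3y covariate 6 members fell (4 and 2, against 7.79% of all genes). Without HET 1 the number that fell was 4 (2 and 2, against 7.14%), and without HET 2 it was 5 (3 and 2, against 7.79%). Tars was at -0.12 (adjusted p = 0.174).

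Some marker genes of cell types also differed between genotypes. Over all genes tested, 15.2% were lower and 8.27% higher in KO than in WT. Of 16 erythroid markers tested, 11 fell in KO against WT (68.8%), among them Rhd, Add2, Epb42 and Alas2 (-1.26 to -0.89), and 0 rose. The mean signal of the erythroid markers ran from 9.72 to 10.25 on KO arrays, 10.34 to 10.73 on HET and 10.44 to 10.71 on WT. Of 19 visceral endoderm markers 6 fell (31.6%), among them Fga, Slc40a1, Apoa4 and Trf (-1.02 to -0.51), and 0 rose. The endoderm means ran from 11.29 to 11.50 in KO, 11.60 to 11.75 in HET and 11.65 to 11.72 in WT. The 14 trophoblast markers with a probe set had means of 6.66, 6.71 and 7.39 on KO 1, KO 2 and KO 3. HET means ran from 6.31 to 6.57 and WT means from 6.37 to 6.65. Only 6 of these markers were bright enough to be tested. Of them 1 was higher (16.7%), Hand1 (0.75 ± 0.10, limma adjusted p = 0.00184), which is also made in mesoderm. The 11 decidua markers had means of 7.35, 7.33 and 7.73 on KO 1, KO 2 and KO 3, beside 6.80 to 7.18 in HET and 7 to 7.37 in WT. Of the 7 tested, 1 was higher (14.3%), Des (0.64). Of 12 endothelial markers 3 rose (25%), among them Etv2 and Egfl7, and 2 fell, Flt1 and Tek (16.7%, near the share of all genes). The endothelial means ran from 9.35 to 9.42 in KO, 9.28 to 9.39 in HET and 9.31 to 9.39 in WT. The part of these cell types in the synthetase values was not tested.

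Genes of the Atf4 pathway outside the synthetases changed in both directions. Among its 28 tested genes 7 rose (25%, beside 8.27% of all genes) and 5 fell (17.9%, beside 15.2%), and the median difference was 0.13. Ddit3, the stress factor CHOP, read 7.15, 7.16 and 7.13 in KO, 6.61, 6.80 and 6.69 in HET and 6.81, 6.80 and 6.70 in WT (0.38 ± 0.06, limma adjusted p = 0.00451). Its KO arrays lay above all others, and Atf5, a related factor, rose as well (0.33 ± 0.08, limma adjusted p = 0.0169). Psat1, an enzyme of serine synthesis, fell by 0.41 (SE 0.06, limma adjusted p = 0.003), and Eif2ak3, the kinase PERK, by 0.59 (SE 0.11, adjusted p = 0.00691).

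Other genes of tRNA charging had 2 of 19 members lower (10.5%) and 1 higher (5.26%), shares no larger than those of all genes (15.2% and 8.27%). Sepsecs, which completes the charging of selenocysteine tRNA, fell by 0.46 (SE 0.08, limma adjusted p = 0.0053), and Tarsl2, a further threonine enzyme, by 0.39 (adjusted p = 0.0419). Yrdc, needed for a modified base beside the anticodon, rose by 0.21 (adjusted p = 0.0311).

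For mitochondrial translation, 10 of 26 genes fell (38.5%) and 1 rose, with a median of -0.18. Lrpprc, which stabilises mitochondrial mRNA, read 10.51, 10.49 and 10.60 in KO, 11.16, 11.16 and 11.11 in HET and 11.11, 11.14 and 11.07 in WT. The groups KO and WT were far apart and HET lay with WT, a difference of -0.57 ± 0.06 (limma adjusted p = 0.00102). Gatb, a subunit of the amidase that makes glutaminyl tRNA in mitochondria in place of a synthetase of its own, fell by 0.50 (SE 0.08, limma adjusted p = 0.00341). The ribosome recycling factor Gfm2 fell by 0.51 and the tRNA modifying enzyme Mto1 by 0.56 (adjusted p = 0.00258 and 0.00336). Mitochondrial ribosomal protein genes had 4 of 77 members lower (5.19%) and 1 higher, with a median of -0.06. Among them Mrps16 rose by 0.26, and Mrpl15, Mrpl48 and Mrpl14 fell by 0.25, 0.24 and 0.22 (limma adjusted p from 0.0112 to 0.0416).

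**Figure D4:**
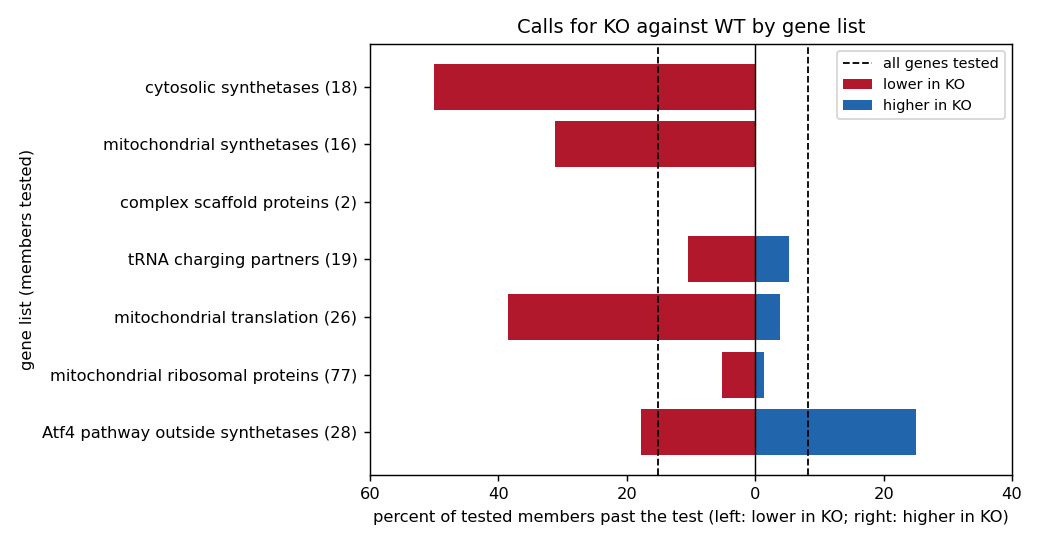
Percent of tested members past the test for KO against WT (x axis, lower in KO to the left in red, higher to the right in blue) for 7 gene lists (y axis, members tested in brackets); dashed lines mark 15.2% and 8.27% of all genes tested. The cytosolic bar reaches 50% lower, the mitochondrial translation bar 38.5% and the mitochondrial synthetase bar 31.2%, while mitochondrial ribosomal proteins stay at 5.19% and the scaffold genes have no bar.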

How the data were processed

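Total RNA of 9 yolk sac samples, 3 per genotype, was hybridised to 1 Affymetrix whole-transcript array each. Per the submitters' processing notes, the authors used RMA and Affymetrix Expression Console 1.2.1.20, and each deposited number is the log2 signal of a probe set. No source used here names the genome build behind the annotation. All 9 deposited columns were used. The number of arrays limits the precision, and signals were not compared between genes. Of 28350 probe sets, 21780 named 1 gene.

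All 9 arrays were fitted with limma 3.58.1 in R 4.3.3, with genotype as the factor and p-values adjusted over the 13207 genes tested by the Benjamini-Hochberg method. The threshold was an adjusted p under 0.05. Arrays for KO against WT were also simulated with these 13207 genes, in 1 set. There 95 of 100 genes changed by 1 on the log2 scale and 68 of 100 changed by 0.5 were recovered, with 10 false calls. In the real fit 3101 genes passed, far more than were changed in the simulation. The p-value needed to pass depends on that number, so the recovery rates do not carry over to the real fit. Most falls reported here are smaller than 0.5. Ratios within pairs were compared by a two-sided exact permutation test (scipy 1.17.1). Promoter windows came from RefSeq (GRCm38.p6).

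The members and gene lists were chosen with earlier results of these data known. Array values are given for members past a test, for the 4 cytosolic, 4 mitochondrial and 2 scaffold genes with the smallest p, and for Rnh1. From other lists up to 4 genes past the test are named. Genes outside this rule, such as Sars2, Iars and Eif2s3y, were named after their values were seen.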

Additional observations from a re-analysis of the deposited data

How the results depend on the processing

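Fits were repeated with other filters on dim genes, with probe sets averaged, with 3 other scalings, with another variance prior, with array weights, with fewer arrays, with a replicate block, with Eif2s3y as a covariate and at an adjusted p under 0.1; the other probe set of Iars was added after the data were seen. For KO against WT, genes past the test numbered 5753 with array weights and 1672 to 3826 with single arrays left out. With only 2 genotypes 9 members passed in place of 14, and 16.6% of all genes in place of 23.5%. Cytosolic enzymes past it numbered 5 without WT 2 and KO 1 and 4 to 10 with single arrays left out. They numbered 11 with arrays centred, 6 with quantile normalization and 6 with cyclic loess, where 19.1%, 14.7% and 14.3% of all genes fell. Mitochondrial ones numbered 3 without WT 2 and KO 1 and 3 with only 2 genotypes, where fewer arrays were fitted, and 3 to 5 with single arrays left out. The cytosolic median was -0.27 with arrays centred, -0.14 with quantile normalization and -0.14 with cyclic loess (-0.23 to -0.16 with single arrays left out). The mitochondrial median was -0.13 with arrays centred and -0.014 without WT 2 and KO 1 (-0.10 to -0.03 with single arrays left out).

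For HET against WT, genes past the test numbered 4 without WT 2 and KO 1, 6 with array weights and 0 to 5 with single arrays left out. The cytosolic median was -0.083 with arrays centred (-0.053 to -0.024 with single arrays left out), the mitochondrial one -0.056 to 0.023. For KO against HET, genes past the test numbered 1739 with Eif2s3y as a covariate (1513 to 3139 with single arrays left out). With only 2 genotypes 5 members passed in place of 8, and 15% of all genes in place of 21.8%. Cytosolic enzymes numbered 3 with only 2 genotypes (2 to 7 with single arrays left out). Mitochondrial ones numbered 4 without WT 2 and KO 1, with array weights, cyclic loess, the median filter, the trended prior or an adjusted p under 0.1 (2 to 4 with single arrays left out). The cytosolic median was -0.17 with array weights and -0.10 with quantile normalization (-0.16 to -0.12 with single arrays left out), the mitochondrial one -0.07 to -0.02.

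Among the 14 genes past the test, Iars and the scaffold genes, the sign turned for the scaffold genes only, whose differences were near 0. For KO against WT, Aimp1 was -0.049 with arrays centred, and -0.004, -0.001 and -0.002 without KO 1, WT 1 and WT 3 (up to 0.057 with single arrays left out). Aimp2 was -0.031 with array weights, -0.059 with arrays centred, and -0.011 and -0.039 without KO 2 and WT 3 (up to 0.038). For KO against HET, Aimp1 was 0.017 with the covariate, 0.003 with quantile normalization and cyclic loess, and 0.015 and 0.007 without HET 3 and KO 3 (down to -0.053). Causes of these shifts were not tested.

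Samples of 1 replicate number did not deviate together in every pair (correlations from -0.26 to 0.42 in 9 pairs), though the 3 pairs of number 3 were all positive (0.18 to 0.42), so the numbers were not taken as pairs. With the replicate block 3131 genes, 7 cytosolic and 5 mitochondrial enzymes passed for KO against WT, and for KO against HET 5 and 3. Mars1 and Rars (KO against WT) and Farsb (KO against HET) did not pass under the block, with the same differences (-0.199, -0.217 and -0.192) and adjusted p of 0.07028, 0.05926 and 0.05871, and Cars2 passed for KO against HET.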

Other observations

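Of 6 ribonucleases of the pancreatic type, which the Rnh1 protein binds, 4 had a probe set of their own. These were Ang2, Rnase1, Rnase6 and Rnase10, and 0 of the 4 were bright enough to be tested. Ang, the gene of angiogenin, and Rnase4 had no probe set of their own, so their level is not known here. Ang2, of the angiogenin family, read 5.76, 5.64 and 5.42 in KO, 5.89, 5.94 and 5.88 in HET and 5.79, 5.82 and 5.79 in WT. Rnase6 read 5.91, 6.38 and 6.05 in KO, 6.19, 6.05 and 6.21 in HET and 5.92, 5.91 and 6.07 in WT, with the genotypes overlapping.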
